A study of Mus musculus with 20 samples.

Results

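The hypoxia-inducible factor (HIF) target genes described here are Vegfa, Adm, Epo, Egln1, Egln3, Car9, Bnip3, Pdk1, Ndrg1 and Ankrd37. They were chosen by symbol, and all 10 were found among the 55822 genes of the table, each with 1 Ensembl identifier. The study sequenced poly(A) RNA of whole kidney from male C57BL/6J mice that were 8 weeks old, and its labels describe 20 samples in 4 groups of 5. The control group received phosphate-buffered saline (PBS) and the puberulic acid group received that compound, a tropolone made by some Penicillium moulds, at 1 mg per day. Both groups were dosed once daily, 6 times in all, and organs were taken on day 7 after a day without dosing. The other 2 groups, given lots of the supplement Choleste-Help that the labels call normal and toxic, are not analysed here, because the names of their columns do not show the lot. On the route the labels differ, with oral dosing in one field and gavage or intraperitoneal injection in a second. They do not state that each library came from a single animal, so the p-values measure the spread between these samples.

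HIF is a transcription factor made of an oxygen-regulated alpha subunit (HIF1A, or HIF2A encoded by Epas1) and the constant beta subunit ARNT. When oxygen is plentiful, prolyl hydroxylases of the EGLN family mark the alpha subunit for destruction by the VHL ubiquitin ligase. When oxygen is low, the alpha subunit escapes, and the dimer binds a short element with the core ACGTG or GCGTG. The kidney is known for its steep internal oxygen gradient, for the interstitial cells that make erythropoietin through HIF2A, and for the tubule cells in which HIF1A raises glycolytic genes. The amount of the alpha subunits is controlled mainly at the protein level, which RNA sequencing does not measure.

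The binding core was looked for in the promoters of these genes, since a shared element is what makes them a group. RefSeq promoter windows (build GRCm38.p6) were held for 9 of the 10 genes, with none for Ndrg1, and the 250 bases before each start site were searched on both strands for ACGTG and GCGTG. At least 1 core lay before a start of each of the 9 genes, where 41.5% of the 27025 genes with a window held one. In the following stretches the cores are in capitals, written 5′ to 3′ on the strand of the gene. They are shown because they are the letters HIF is known to bind, in the gene that fell most, the gene that rose, an oxygen sensor, the classical hypoxia marker gene and a gene dense in cores. Their coordinates belong to the GRCm38.p6 table and not to the build GRCm39 that the submitters' notes name.
Bnip3, chr7:138909581-138909643, minus strand: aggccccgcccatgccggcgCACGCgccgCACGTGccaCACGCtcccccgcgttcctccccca
Adm, chr7:110627547-110627627, plus strand: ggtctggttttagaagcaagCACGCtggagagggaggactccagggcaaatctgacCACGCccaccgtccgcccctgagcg
Egln1, chr8:124949298-124949342, minus strand: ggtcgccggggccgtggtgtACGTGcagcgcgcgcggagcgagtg
Car9, chr4:43506988-43507025, plus strand: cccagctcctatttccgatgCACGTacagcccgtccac
Ankrd37, chr8:45999978-46000025, minus strand: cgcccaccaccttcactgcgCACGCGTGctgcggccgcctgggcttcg
The Bnip3 stretch spans -137 to -75 from the start and holds 4 cores, 2 of which share the palindrome CACGTG. The Bnip3 window held 5 cores in all, Ankrd37 held 4, and Adm, Epo and Egln1 held 2 each. Car9 had a single core at -18, Egln3 a single core at -229 and Pdk1 a single core at -78, before the first of its 2 listed starts. The outer start of Vegfa had no core in its window, and a start listed inside the gene had 2. A match of letters is a description of the sequence, and whether HIF was bound there was not measured.

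Libraries held 18409877 to 24705587 estimated counts. Values are CPM (counts scaled per 1000000), and library sizes were multiplied by factors from the trimmed mean of M-values (TMM), which ran from 0.827 to 0.848 in the PBS group and from 1.17 to 1.26 in the treated group. Differential expression was tested with edgeR's quasi-likelihood test and Benjamini-Hochberg (BH) adjustment over 16266 genes, and genes with an adjusted p under 0.05 were called. Puberulic acid changed a large part of the transcriptome, so that 65.3% of the genes tested were called, 34.2% higher and 31.1% lower. The choice of scaling moved this split: 52.4% of the calls were higher with TMM and 78.4% with scaling to total counts, and the median gene stood at a log2 fold change of 0.05 and 0.56. Mitochondrially encoded genes held 18.8% to 22.2% of the counts of control libraries and 10.5% to 13.8% of those of treated libraries.

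The HIF targets did not move as a block. Bnip3, Egln1, Vegfa, Pdk1 and Ndrg1 were lower with puberulic acid, Adm was higher, and Egln3, Car9 and Ankrd37 did not pass the test. Epo was at or under 3 counts in every library and was not tested. The 6 called genes are 66.7% of the 9 tested, close to the 65.3% of all genes, and the median log2 fold change of the 9 was -0.48 beside 0.05 for all genes. With total counts as the scale, 3 were called lower (Bnip3, Egln1, Vegfa) and 2 higher (Adm, Ankrd37), Pdk1 and Ndrg1 were no longer called, and the median was 0.03 beside 0.56. On that scale 2526 of all 16266 genes tested were called lower and 9179 higher. The CPM ranges of the groups were apart for 4 of the genes, where 50.1% of all genes tested had ranges apart.

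**Figure D1:**
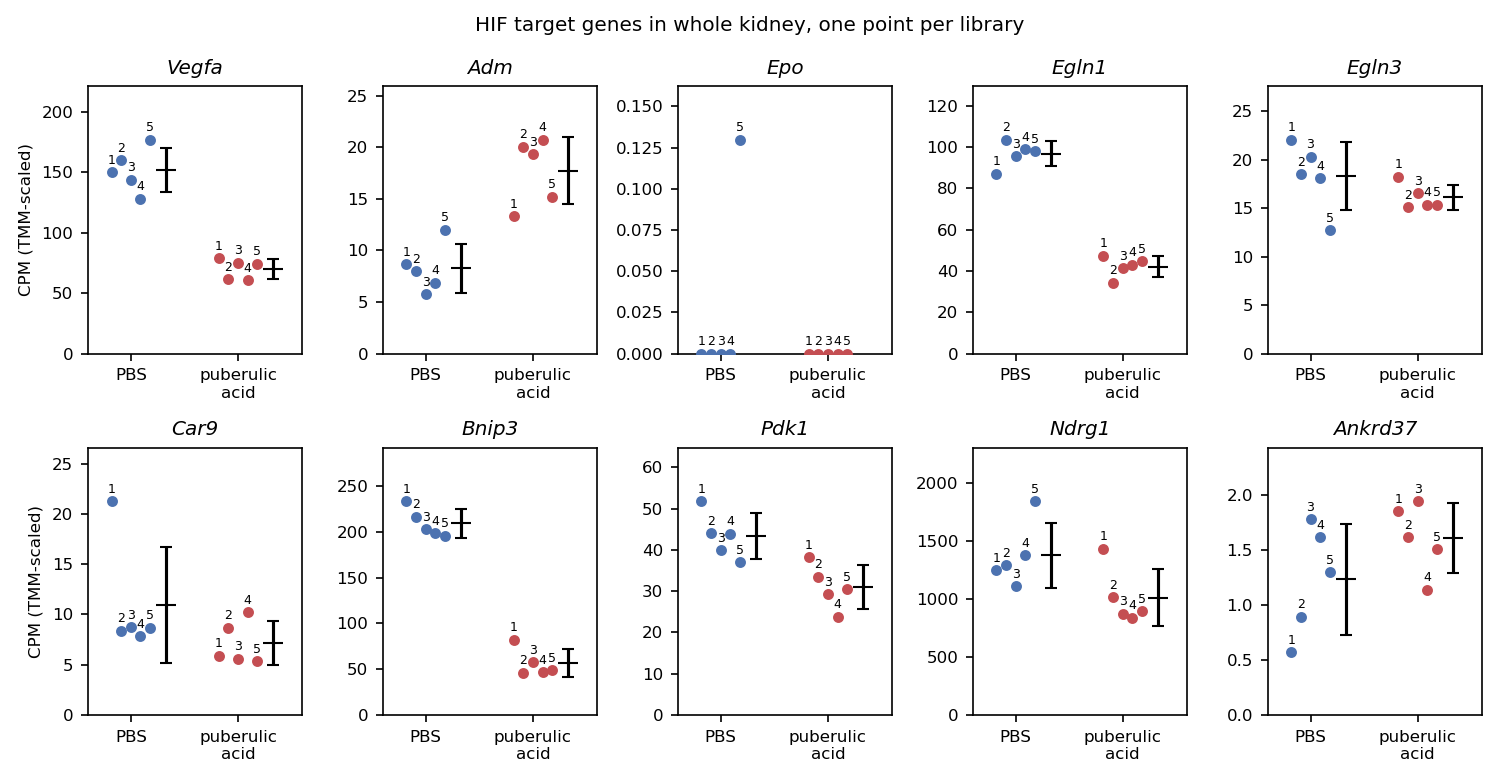
TMM-scaled CPM (vertical axis, linear from 0) of each HIF target gene in the 5 PBS and 5 puberulic acid libraries, with replicate numbers beside the points and the mean and SD as a bar (no bar for Epo). The groups are apart for Vegfa, Egln1, Bnip3 and Adm, control replicate 1 stands alone for Car9 at 21.3 CPM, and Epo has 1 library above 0.

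Among the secreted factors, Vegfa and Adm moved in opposite directions. Vegfa encodes the growth factor that maintains the kidney's capillaries and is made by podocytes and tubule cells. It stood at 149.9, 159.8, 143.7, 128.0 and 176.9 CPM in control replicates 1 to 5 and at 78.9, 61.7, 75.1, 60.5 and 74.3 CPM in puberulic acid replicates 1 to 5. Every puberulic acid library lay below every control. The level fell 2.16-fold, from 151.7 ± 18.2 to 70.1 ± 8.41 CPM (n = 5 each, SD), a log2 fold change of -1.11 ± 0.11 (SE, edgeR adjusted p = 3.51e-06). The size depended on the scale, with -0.60 on total counts (edgeR adjusted p = 0.000441).

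Markers of tubule cells and podocytes, which make Vegfa, did not all move alike. All 10 proximal tubule markers were lower, with a summed level of 9245 to 14168 CPM in the PBS group and 691 to 1603 CPM with puberulic acid. Of 8 collecting duct markers 7 were lower, with sums of 543.5 to 760.7 and 220.6 to 394.3 CPM, and of 4 distal tubule markers 3 were lower, with sums that overlapped, at 818.5 to 1256 and 243.8 to 837.8 CPM. Thick limb markers, 2 of 4 lower, had overlapping sums of 2850 to 5145 and 2999 to 5710 CPM, and Umod, the most abundant of them, did not pass at 0.06 (edgeR adjusted p = 0.782). On total counts 4 collecting duct and 2 distal tubule markers were lower, and the calls of Scnn1g, Atp6v1g3, Foxi1 and Slc12a3 were lost. Both thick limb calls, Slc12a1 and Kcnj1, were lost there as well, while Umod (0.57), Cldn16 (0.40) and the distal tubule marker Trpm6 (0.77) were called higher. The Slc12a1 call was also lost in 7 of the 10 fits that left out 1 library, those without control replicates 1, 3 or 4 or puberulic acid replicates 2 to 5. Of 5 podocyte markers 1 was called, Nphs1 at -1.01, and their sums overlapped, at 227.4 to 495.4 and 109.4 to 436.6 CPM. The Nphs1 call was lost on total counts (-0.49) and without control replicate 3, 4 or 5 or puberulic acid replicate 3, and Synpo was called higher on total counts (0.79, edgeR adjusted p = 0.00784). All 7 markers of injured tubule were higher. In bulk tissue, fewer cells of a type and less RNA per cell cannot be told apart, and the part of these cell types in the result was not tested.

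Adm encodes adrenomedullin, a peptide that widens blood vessels. Its control libraries held 8.67, 7.96, 5.73, 6.86 and 12.0 CPM, and its puberulic acid libraries 13.3, 20.1, 19.3, 20.7 and 15.2 CPM. The highest control, replicate 5, lay just under the lowest treated library, replicate 1. The mean rose 2.15-fold, from 8.25 ± 2.38 to 17.7 ± 3.27 CPM (n = 5 each, SD), a log2 fold change of 1.10 ± 0.20 (SE, edgeR adjusted p = 0.000412). On total counts the log2 fold change was 1.61 (edgeR adjusted p = 1.44e-05).

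Epo encodes erythropoietin, the hormone that drives red cell production. Of the 10 libraries, 1 held any Epo count, control replicate 5 with 2 counts, or 0.130 CPM. The other 9 held 0, which allows up to 3 counts per library, 0.158 to 0.191 CPM in the other controls and 0.0964 to 0.128 CPM with puberulic acid. A fall in Epo was therefore not detectable at this depth. No treated library held an Epo count, so a rise well above these floors was not seen. The interstitial markers, from the compartment of the Epo-producing cells, were detected in all libraries. Of 7 such markers 4 were higher, Col1a1 by 4.14, Dcn by 1.24, Pdgfrb by 1.09 and Nt5e by 0.44 on the log2 scale. The Nt5e call was lost without control replicate 3 or 5 or puberulic acid replicate 2, 3 or 4 (edgeR adjusted p up to 0.0819). The sums of the 7 were 190.2 to 230.9 CPM in the PBS group and 386.1 to 918.8 CPM with puberulic acid. The 3 erythroid markers tested were lower (Hba-a1 -3.79, Alas2 -3.55, Hbb-bs -3.50), and the summed level of the 4 listed was 606 to 2040 CPM in the PBS group and 17.9 to 180.2 CPM with puberulic acid. How these relate to the hormone was not tested.

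The prolyl hydroxylases that sense oxygen and are themselves raised by HIF in many tissues differed from each other. Egln1, the main hydroxylase in most cells, held 87.2, 103.7, 95.6, 99.1 and 98.2 CPM in the PBS group and 47.4, 34.3, 41.3, 43.1 and 44.6 CPM with puberulic acid. The groups lay far apart, and the control libraries differed by a coefficient of variation of 6.305%, the smallest of these genes. Egln1 fell 2.30-fold, from 96.8 ± 6.10 to 42.1 ± 4.90 CPM (n = 5 each, SD), with a log2 fold change of -1.20 ± 0.09 (SE, edgeR adjusted p = 5.80e-07). The size depended on the scale, with -0.69 on total counts (edgeR adjusted p = 5.26e-05).

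Egln3, the hydroxylase gene most readily induced by HIF in many cells, held 22.1, 18.5, 20.3, 18.1 and 12.7 CPM in the PBS group and 18.3, 15.1, 16.5, 15.4 and 15.4 CPM with puberulic acid. All 5 treated libraries lay within the control range. The log2 fold change was -0.19 ± 0.14 (SE, edgeR adjusted p = 0.253), and it was 0.32 on total counts (edgeR adjusted p = 0.0534), so its sign depended on the scale. Without control replicate 5, the lowest, it was -0.30 and passed (edgeR adjusted p = 0.0253). Egln2, the third gene of the family and not a classical HIF target, was lower by 2.03-fold, from 73.5 ± 6.14 to 36.1 ± 8.47 CPM (n = 5 each, SD, edgeR adjusted p = 8.82e-05). Over the alternative fits its log2 fold change ran from -1.16 to -0.51, and its groups overlapped on total counts.

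Bnip3 and Pdk1, which act on mitochondria and fuel use, were lower to different extents. Bnip3, whose product marks mitochondria for removal by autophagy, showed the largest change of the group. It held 233.6, 216.4, 202.6, 198.5 and 195.6 CPM in the PBS group and 82.4, 46.4, 57.5, 47.1 and 49.0 CPM with puberulic acid. Every treated library lay far below every control, and replicate 1 was the highest of the treated. Bnip3 fell 3.71-fold, from 209.4 ± 15.7 to 56.5 ± 15.2 CPM (n = 5 each, SD), a log2 fold change of -1.89 ± 0.16 (SE, edgeR adjusted p = 8.49e-07), and by 1.38 on the log2 scale with total counts. Its close relative Bnip3l, which acts in the same form of mitophagy, had 122.6 ± 16.1 and 104.2 ± 8.28 CPM (n = 5 each, SD) and did not pass (log2 fold change -0.23, edgeR adjusted p = 0.0596). Bnip3l was called lower with RLE size factors (-0.25, edgeR adjusted p = 0.0494), with DESeq2 (-0.25, adjusted p = 0.0374) and without control replicate 4 or 5 or puberulic acid replicate 4 or 5, and it was called higher on total counts (0.28, edgeR adjusted p = 0.0323).

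Pdk1 encodes a kinase that keeps pyruvate out of the mitochondria by switching off pyruvate dehydrogenase. Its libraries held 51.9, 44.0, 39.9, 43.9 and 37.0 CPM in the PBS group and 38.3, 33.5, 29.2, 23.8 and 30.5 CPM with puberulic acid. The ranges met only through treated replicate 1, which lay above control replicate 5. Pdk1 was lower by 1.40-fold (log2 fold change -0.48 ± 0.13, SE, edgeR adjusted p = 0.00633), but on total counts the log2 fold change was 0.03 (edgeR adjusted p = 0.847). The other kinases of this family did not follow one direction. Pdk2 fell from 274.1 ± 44.0 to 51.0 ± 22.9 CPM and Pdk4, which is switched on in fasting, rose from 21.4 ± 11.8 to 91.9 ± 29.5 CPM (n = 5 each, SD), log2 fold changes of -2.43 and 2.10 (edgeR adjusted p = 4.65e-06 and 0.000143). Both kept their direction on total counts. Pdk3 was lower at -0.68 (edgeR adjusted p = 0.000436) and was not called on total counts.

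Ndrg1, a gene of growth arrest and stress that is widely used as a hypoxia marker, had the highest level of these genes, also per kilobase. Control libraries held 1249, 1291, 1113, 1381 and 1846 CPM, and treated libraries 1436, 1017, 874.7, 840.4 and 895.9 CPM. Treated replicate 1 lay within the control range, and the other 4 lay below every control. The log2 fold change of -0.44 ± 0.17 (SE) was just past the threshold (edgeR adjusted p = 0.0405). It lost the call in 7 of the 10 fits that left out 1 library, those without control replicates 2, 4 or 5 or puberulic acid replicates 2 to 5 (edgeR adjusted p from 0.0503 to 0.0990), and it was 0.07 on total counts (edgeR adjusted p = 0.741). Ndrg2 and Ndrg3 were lower, at log2 fold changes of -1.53 and -0.97 (edgeR adjusted p = 0.000316 and 1.76e-05), and Ndrg4 did not pass at 0.53 (edgeR adjusted p = 0.104). Ndrg4 was called higher on total counts, with or without mitochondrially encoded genes, at up to 1.04.

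Car9 encodes a membrane carbonic anhydrase that is a classical marker of hypoxic cells. It held 21.3, 8.38, 8.72, 7.85 and 8.70 CPM in the PBS group and 5.90, 8.69, 5.59, 10.2 and 5.33 CPM with puberulic acid. Control replicate 1 stood apart, and the other 4 controls lay inside the treated range. The log2 fold change of -0.62 ± 0.31 (SE) did not pass (edgeR adjusted p = 0.0929). Without control replicate 1 it was -0.25 (edgeR adjusted p = 0.318), and without puberulic acid replicate 4 it was -0.83 and passed (edgeR adjusted p = 0.0437). Of the carbonic anhydrases of healthy tubule, Car14 fell from 108.4 ± 33.8 to 2.82 ± 3.73 CPM and Car4 from 187.0 ± 41.6 to 18.1 ± 6.35 CPM (n = 5 each, SD), log2 fold changes of -5.25 and -3.37 (edgeR adjusted p = 2.10e-05 and 3.03e-07). Treated Car14 libraries had a median of 1.313 CPM and a highest value of 9.465 CPM. Over the alternative fits the Car14 log2 fold change ran from -6.55 to -4.75. Car12, another HIF-responsive member, was lower at -1.46 (edgeR adjusted p = 8.89e-05), and cytosolic Car2 did not pass at -0.11 (edgeR adjusted p = 0.407), and was called higher on total counts at 0.40 (edgeR adjusted p = 0.00505).

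Ankrd37 encodes an ankyrin-repeat protein whose gene is a strong HIF target in many cell lines. It was scarce, with 0.571, 0.896, 1.78, 1.62 and 1.30 CPM in the PBS group and 1.86, 1.62, 1.95, 1.14 and 1.51 CPM with puberulic acid. The groups overlapped, and control replicates 1 and 2 were the lowest libraries. The log2 fold change of 0.39 ± 0.31 (SE) did not pass with TMM (edgeR adjusted p = 0.278) and passed on total counts at 0.90 (edgeR adjusted p = 0.0213).

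**Figure D2:**
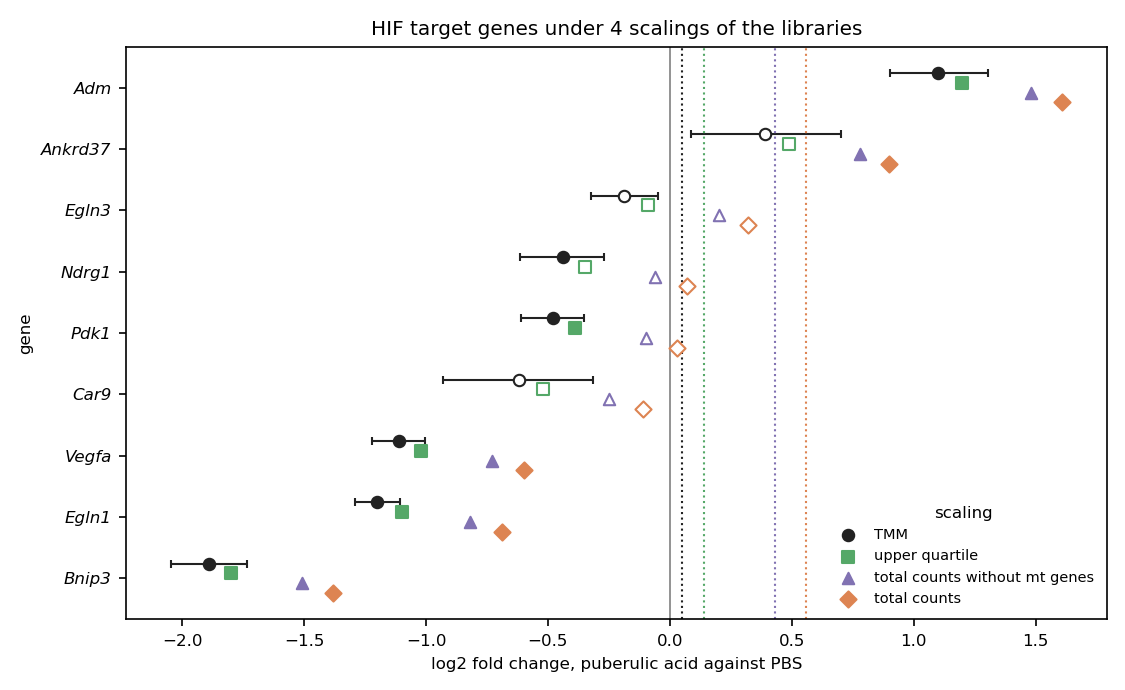
Log2 fold change of puberulic acid against PBS (horizontal axis) for the 9 HIF target genes tested (rows), under 4 scalings; filled symbols passed an adjusted p of 0.05, bars are the SE of the TMM fit, and dotted lines mark the median of all genes under each scaling. Bnip3, Egln1, Vegfa and Adm pass under each of the 4, while Egln3, Ndrg1 and Pdk1 cross 0 with total counts.

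Bnip3, Egln1, Vegfa and Adm kept their direction and passed in each of the 19 alternative fits. How many of all genes did so was not counted. On total counts alone, 8253 of the 10622 genes called with TMM were called again. The treated libraries were not alike among themselves. In all 6 called genes, puberulic acid replicate 1 was the treated library nearest to the control mean. This library also stood apart in cell markers. Its proximal tubule sum was 1603 CPM against 691 to 831 CPM in the other treated libraries, and its distal tubule sum 837.8 against 243.8 to 370.8 CPM. It had the lowest sums of the treated for injured tubule (14316 CPM), interstitial (386.1 CPM) and immune markers (89.2 CPM). The part of these cells in the values was not tested. Without it the log2 fold changes were -2.09 for Bnip3, -1.27 for Egln1, -1.18 for Vegfa, -0.63 for Ndrg1, -0.59 for Pdk1 and 1.17 for Adm, each called by edgeR.

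The order of the genes was compared per kilobase of exon, using exon lengths of GENCODE release M21. In controls Ndrg1 led with 476.2 ± 96.9 CPM per kilobase (SD, n = 5), followed by Bnip3 at 112.9 ± 8.49, Vegfa at 43.1 ± 5.17 and Egln1 at 26.9 ± 1.70. The ranges of these 4 did not overlap. Pdk1, Egln3, Adm and Car9 followed at 8.36, 6.89, 5.93 and 5.43, with ranges that overlapped each other, and Ankrd37 was at 1.33. With puberulic acid Bnip3 was at 30.4 ± 8.17 and Vegfa at 19.9 ± 2.39 CPM per kilobase. Adm, the seventh gene in controls, stood at 12.8 ± 2.35, beside Egln1 at 11.7 ± 1.36, and their ranges overlapped.

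**Figure D3:**
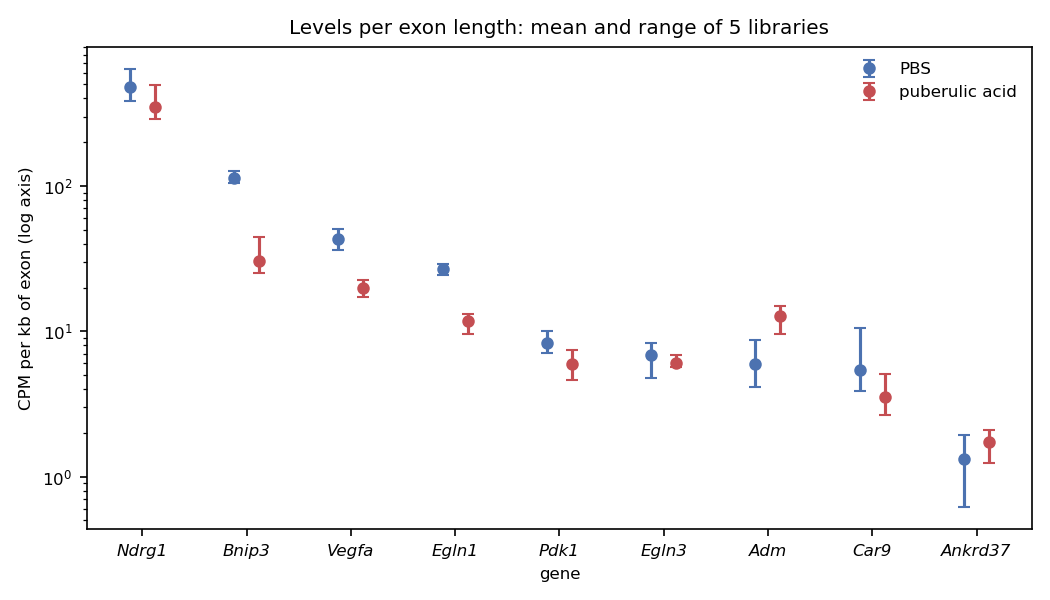
CPM per kilobase of exon (log axis) for 9 HIF target genes in PBS and puberulic acid libraries, as the mean and range of 5 libraries each; Epo is left out. Ndrg1 is highest and Ankrd37 lowest in both groups, and Adm moves from 5.93 to 12.8, level with Egln1.

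The subunits and regulators of HIF changed at about the rate of all genes. Of 17 genes in this list, 6 were called higher, 5 lower and 6 did not pass, or 64.7% called beside 65.3%, with a median log2 fold change of 0.05, the same as that of all genes. The split depended on the scale, with 12 higher and 2 lower on total counts and 11 higher and 2 lower on total counts without mitochondrially encoded genes. Of all 16266 genes tested, 9179 were higher and 2526 lower on the first of these scales, and 8278 and 3007 on the second. Hif1a, which encodes the main oxygen-regulated subunit, held 85.9 ± 8.24 CPM in the PBS group and 84.5 ± 4.24 CPM with puberulic acid (n = 5 each, SD, log2 fold change -0.02 with TMM, edgeR adjusted p = 0.805). On total counts Hif1a was called higher, at 0.49 (edgeR adjusted p = 0.000249). Epas1, which encodes HIF2A, was at 135.2 ± 22.6 and 93.4 ± 26.2 CPM (n = 5 each, SD), a log2 fold change of -0.53 (edgeR adjusted p = 0.0244) that lost its call on total counts (-0.02), with upper-quartile scaling, and without control replicate 5 or puberulic acid replicate 3. Hif3a, an inhibitory subunit, was lower at -2.06 (edgeR adjusted p = 0.0216), with controls spread from 0.573 to 8.16 CPM, and lost its call on total counts with or without mitochondrially encoded genes (-1.54 and -1.66), with the replicate number as a block (-1.37, edgeR adjusted p = 0.146) and without control replicate 4 (-1.14, edgeR adjusted p = 0.0958).

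The partners and the destruction machinery included genes that rose. Arnt rose from 23.1 ± 2.31 to 40.3 ± 3.22 CPM and Vhl from 19.9 ± 1.32 to 33.1 ± 7.59 CPM (n = 5 each, SD), log2 fold changes of 0.80 and 0.74 (edgeR adjusted p = 1.17e-05 and 0.000713). Arnt2 and the coactivator Ep300 rose by 0.66 and 0.80, as did Crebbp (0.61) and Cited2 (0.53), which competes with HIF for those coactivators. Siah2, a ligase that degrades EGLN proteins, fell by 1.05 (edgeR adjusted p = 8.25e-05), beside Egln2 at -1.02 and Cul2, the scaffold of the VHL ligase, at -0.32. Cul2 had 0.19 on total counts and was then not called.

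Receptors of the secreted factors were split with TMM. Of 10 genes, 3 were higher, 3 were lower and 4 did not pass, or 60% called beside 65.3% of all genes, with a median log2 fold change of 0.00. On total counts, with or without mitochondrially encoded genes, 5 were called, each higher, and 5 did not pass, with medians of 0.51 and 0.38. On these scales the medians of all genes were 0.56 and 0.43, with 9179 and 8278 of 16266 called higher and 2526 and 3007 lower. The VEGF co-receptor genes Nrp2 and Nrp1 rose by 0.99 and 0.50 (edgeR adjusted p = 0.000873 and 0.00257), while Kdr, the main signalling receptor of endothelium, fell from 48.7 ± 9.34 to 27.3 ± 10.0 CPM (n = 5 each, SD, log2 fold change -0.83, edgeR adjusted p = 0.00941). On total counts Kdr was at -0.32 and not called. Of 7 endothelial markers 2 were lower, Ehd3 and Egfl7, and their sums overlapped at 276 to 444 and 165 to 374 CPM. Neither was called on total counts, where Ehd3 was at -0.59 and Egfl7 at 0.05. The part of endothelial cells in the Kdr value was not tested. Ramp2, a partner of the adrenomedullin receptor, was higher at 0.53 (edgeR adjusted p = 0.0153) and lost its call without puberulic acid replicate 4 or 5. The receptor gene Calcrl did not pass at 0.42 (edgeR adjusted p = 0.185). It was called higher without puberulic acid replicate 2 and on total counts, with or without mitochondrially encoded genes, at up to 0.94. Ackr3, which removes adrenomedullin and chemokines, was lower at -0.49 (edgeR adjusted p = 0.000497) with TMM and at 0.02 on total counts. Epor, the erythropoietin receptor, was lower at -0.77 (edgeR adjusted p = 0.0365), from 2.18 ± 0.45 to 1.28 ± 0.52 CPM (n = 5 each, SD). It lost that call on total counts and in 7 of the 10 fits that left out 1 library, those without control replicates 1, 2, 3 or 5 or puberulic acid replicates 3, 4 or 5.

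Among 16 relatives of these genes in the same families, 9 were lower, 2 were higher and 5 did not pass, or 68.8% called beside 65.3% of all genes, with a median log2 fold change of -0.83 beside 0.05. Besides those named above, Vegfb and Vegfd fell by 1.35 and 1.10, and Pgf, placental growth factor, rose by 1.34 from a level under 1 CPM (edgeR adjusted p = 2.08e-05, 0.00164 and 0.00209). Vegfc did not pass at 0.20 (edgeR adjusted p = 0.397) and was called higher on total counts, with or without mitochondrially encoded genes, at up to 0.71. On total counts 8 relatives were called lower and 7 higher, beside 2526 lower and 9179 higher of all 16266 genes tested.

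**Figure D4:**
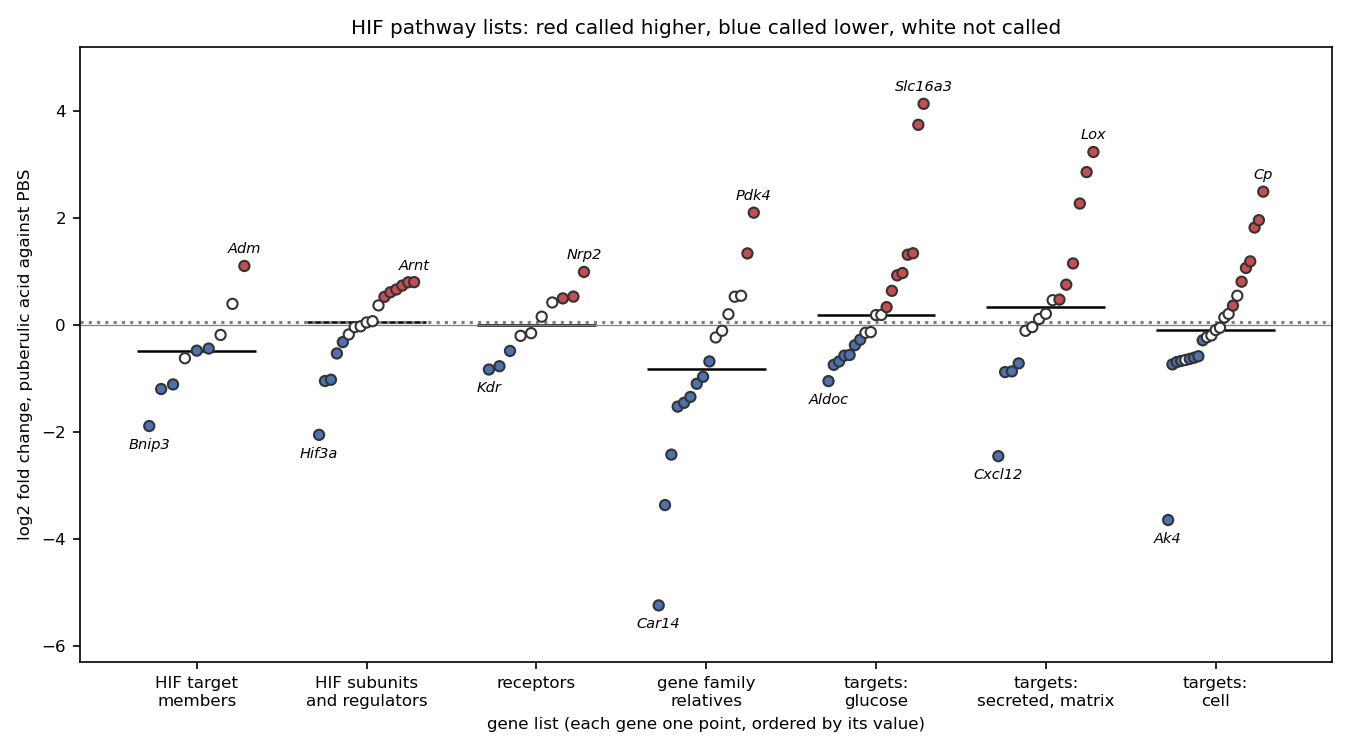
Log2 fold change of puberulic acid against PBS (vertical axis, TMM scaling) for the genes tested in 7 lists, less 1 gene that is not shown, with red for called higher, blue for called lower and white for not called; black lines are list medians and the dotted line is the median of all genes, 0.05. Each list holds genes on both sides of 0, and the lowest of them is Car14 at -5.25.

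Other textbook HIF targets, 58 genes in 3 lists, also went both ways. With TMM 22 were higher, 19 were lower and 17 did not pass, or 70.7% called beside 65.3% of all genes, and the median log2 fold change was 0.13. On total counts 35 were higher and 2 lower, beside 9179 higher and 2526 lower of all 16266 genes tested. That split of all genes also stands beside the total-count splits of the 3 lists given below. Of these genes, 20 were called higher and 2 lower in every one of the 19 alternative fits, which include total counts. How many of all genes kept a call in every fit was not counted, so this split has no background to stand beside.

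In glucose uptake and glycolysis 8 of 19 genes were higher and 7 lower, or 78.9% called beside 65.3% of all genes. On total counts 13 were called, each higher, and 6 did not pass, and without mitochondrially encoded genes in the totals 11 were higher and 3 lower. Ldha, which makes lactate, was called lower with TMM (-0.28, edgeR adjusted p = 0.0112) and higher on total counts (0.23, edgeR adjusted p = 0.0209). Slc16a3, which exports lactate, rose from 0.405 ± 0.180 to 7.24 ± 2.78 CPM and Hk2, an inducible hexokinase, from 1.14 ± 1.42 to 15.1 ± 3.06 CPM (n = 5 each, SD), log2 fold changes of 4.14 and 3.74 (edgeR adjusted p = 3.96e-06 and 0.000164). Hk2 controls had a median of 0.422 CPM and a highest value of 3.55 CPM. Over the alternative fits the Hk2 log2 fold change ran from 3.45 to 4.82. Slc2a3 and Pfkp rose by 1.34 and 1.31, and Slc2a1, the glucose transporter most often used as a HIF readout, by 0.97. The glycolytic enzyme genes Aldoc (-1.05), Tpi1 (-0.75), Gpi1 (-0.68) and Pfkl (-0.57) were lower with TMM and were not called on total counts.

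Among secreted factors and matrix enzymes 7 of 16 genes were higher and 4 lower, or 68.8% called, near the 65.3% of all genes, and on total counts 11 were higher and 1 lower. Lox and Loxl2, which cross-link collagen, rose by 3.24 and 2.86, and Edn1, endothelin, by 2.27 (edgeR adjusted p = 6.54e-06, 3.92e-06 and 3.14e-05). Cxcl12, a chemokine of stroma and podocytes, fell by 2.46 from 167.0 ± 21.6 to 30.4 ± 17.9 CPM (n = 5 each, SD, edgeR adjusted p = 7.66e-05). Igfbp3, Angpt2 and Igfbp1 were lower by TMM at -0.88, -0.87 and -0.72 and were not called on total counts. The Angpt2 call was also lost without control replicate 1, and the Igfbp1 call without control replicate 1 or 2 or puberulic acid replicate 4 or 5. The interstitial markers given beside Epo had calls only in the direction of the higher genes of this list. So did the immune markers, of which 3 of 5 tested were higher. The immune sums overlapped, at 24.9 to 92.5 CPM in the PBS group and 89.2 to 313.6 CPM with puberulic acid. The part of these cells in the list was not tested.

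Of 23 further targets 7 were higher and 8 lower, or 65.2% called, the rate of all genes (65.3%), and on total counts 11 were higher and 1 lower. Cp, ceruloplasmin, rose by 2.49, Hmox1, heme oxygenase, by 1.96, Hilpda, a lipid droplet protein, by 1.82 and Trf, transferrin, by 1.19 (edgeR adjusted p = 1.85e-05, 2.87e-05, 2.02e-05 and 0.0184). The Trf call was lost without puberulic acid replicate 3 (1.00, edgeR adjusted p = 0.0533). That library stood apart in markers of neighbouring tissues, with sums of 70.2 CPM for adipocyte, 44.1 CPM for adrenal and 46.3 CPM for urothelium markers, against 3.53 to 6.13, 1.45 to 3.44 and 17.1 to 22.6 CPM in the other treated libraries. Their part in the Trf value was not tested. Ak4, a mitochondrial adenylate kinase that is abundant in proximal tubule, fell from 509.4 ± 72.3 to 40.6 ± 25.4 CPM (n = 5 each, SD), a log2 fold change of -3.65 (edgeR adjusted p = 2.34e-06). Gbe1 (-0.74), Lonp1 (-0.69) and Mxi1 (-0.67) were lower with TMM and not called on total counts. Hmox1 and Edn1 are also known targets of other stress pathways.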

How the data were processed

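Poly(A) RNA libraries of whole kidney were made with a directional kit, per the labels' protocols. The authors deposited fractional estimated counts for each gene. Per the submitters' processing notes, fastp 0.22.0, FastQC 0.12.1, MultiQC 1.28, Salmon 1.10.3, DESeq2 and the build GRCm39 were used; the annotation is not given in the sources used here. Columns were assigned to 5 control and 5 puberulic acid samples by name, and 10 other sample columns were not used. Symbols were found for 51344 identifiers; of 2 rows for Aldoa, the one with more counts was used.

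Estimated counts were rounded. Genes were kept with filterByExpr and tested with edgeR 4.0.16 (limma 3.58.1, R 4.3.3; glmQLFit, robust off), with TMM factors and BH adjustment over all genes tested; an adjusted p under 0.05 is a call. Each SE is the absolute log2 fold change over the root of its F statistic. The code was tested on simulated data. Alternatives were RLE, upper-quartile and total-count scaling, no filter, 1 CPM in 5 samples, DESeq2 1.42.0, a robust fit, a replicate block and leaving out each library; total counts without mitochondrially encoded genes was chosen after seeing the data. Floors of 3 counts cover counting error only. Members and lists were chosen with earlier results of these data known. All members are described; genes of the machinery, receptor and relatives lists may be named, and in each list up to 4 called genes each way, largest in log2 fold change with a mean of at least 1 CPM, are named with values, except 1 gene that is not reported here. Slc2a1, Ldha and the markers named fall outside that rule and were chosen after their values were seen.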

Additional observations from a re-analysis of the deposited data

Results flagged for a closer look

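Within each group of 5, the values of each HIF target were searched for a library separated from the next value by over 0.71 of the span from lowest to highest. Such a library was found in 2 of 19 sets searched. Chance gives about 1 in 20 for continuous values. That rate does not hold for the Epo set, where a count in only 1 library is always flagged. Car9 in control replicate 1 was at 21.3 CPM, while the other 4 controls lay between 7.85 and 8.72 CPM, a gap of 0.935 of the range. Epo in control replicate 5 was at 0.130 CPM, which is 2 counts, and the other controls were at 0, so the gap is the whole range and rests on those 2 counts.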

How the results depend on the processing

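The 9 tested HIF targets were each refitted under 19 alternatives. Of these 171 values, 152 kept their direction and their side of the threshold, 13 lost the call, 4 gained it and 4 changed sign, of which 2 are among the 13. The sign changes were Egln3 at 0.32 on total counts and 0.20 on total counts without mitochondrially encoded genes, Pdk1 at 0.03 on total counts and Ndrg1 at 0.07 on total counts. The median gene stood at 0.56 and 0.43 on these scales. On total counts 9179 genes were called higher and 2526 lower, and 3007 lower without the mitochondrially encoded genes; 2 HIF targets were then called higher and 3 lower with either. Samples of the same number share only a number: the correlation of their deviations from the group means ran from -0.172 to 0.039, and 1 of the 10 samples correlated best with its own number. With the replicate block 10325 genes were called in place of 10622, 5 HIF targets in place of 6, and Ndrg1 had an adjusted p of 0.0527 (edgeR). Leaving out 1 library gave 10104 to 11108 called genes and 5 to 6 called HIF targets. The split into higher and lower moved on total counts from 6 and 5 to 12 and 2 for HIF regulators, from 2 and 9 to 7 and 8 for relatives and from 22 and 19 to 35 and 2 for other targets; receptors went from 3 and 3 to 5 calls, each higher. Depth limits Epo, which had 2 counts in all.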
